A study of Mus musculus with 12 samples.

Results

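The step from 10 to 30 µM 6-shogaol was followed in BV2 cells, an immortalized line of mouse microglia, with lipopolysaccharide (LPS) present at both doses. The 4 libraries compared, of 12 in the series, were chosen by their labels: 2 replicates at 10 µM and 2 at 30 µM. All 12 libraries came from cells moved to serum-free medium 24 h after seeding and left in it for at least 4 h. In every group but the untreated one LPS was added at 100 ng/mL, and where a compound was given LPS followed 1 h after it. The other 8 libraries serve as reference here: untreated cells, LPS alone, and LPS with 6-gingerol at 10 and at 30 µM, with 2 libraries each. The labels name no vehicle for the groups without compound, and they do not give the time from LPS to harvest. They also do not say whether replicates were separate cultures, so p-values measure only the spread between these libraries, which may be technical.

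6-Shogaol is a pungent phenol of dried ginger that forms from 6-gingerol by loss of water, which leaves an α,β-unsaturated ketone in place of a β-hydroxy ketone. LPS binds TLR4 on microglia and starts an early wave of NF-κB-driven cytokine genes and, through secreted interferon-β, a later wave of interferon-stimulated genes. Electrophiles can modify cysteines of KEAP1 and release NRF2, the activator of antioxidant genes, and misfolded protein frees HSF1, the activator of heat shock chaperones. E2F factors switch on the genes of DNA replication as cells pass from G1 into S phase.

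Sequencing depth over the 12 libraries lay between 16534960 and 21179867 expected counts. The 4 libraries of the dose step held 16534960 and 19876803 (10 µM) and 16535052 and 18065906 (30 µM). Mean fragment length was 247.0 and 247.9 bases at 10 µM, 235.6 and 244.1 at 30 µM and 237.0 and 223.0 with LPS alone, so both 10 µM libraries lay above those of the other 2 groups. Transcripts of the mitochondrial genome took 4.89% and 4.91% of counts at 10 µM against 5.11% and 6.21% at 30 µM. Of 39 microglial genes listed, 33 passed the count filter. All 39 together summed to 4771 and 4792 CPM (scaled counts, as edgeR gives them per unit of library size) at 10 µM and 5067 and 5280 CPM at 30 µM, with Sall1 at 0 in all libraries. Neuron markers summed to at most 0.30 CPM in the 3 groups with LPS and 6-shogaol or LPS alone, and lymphocyte and neutrophil markers to at most 3.27 CPM. The astrocyte list (summed range 80.5 to 108 CPM, with Aqp4, Slc1a3 and Fgfr3 at 0 in all libraries) and the fibroblast and endothelium list (133 to 171 CPM, with Col1a2, Dcn, Lum and Cldn5 at 0) were carried by their remaining members, of which 2 of 9 and 4 of 10 passed the count filter. Fewer cells of a kind and less RNA per cell cannot be told apart in such bulk libraries.

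Raising the dose from 10 to 30 µM changed 2463 of 12705 genes tested (19.4%), of which 1251 were higher (9.85%) and 1212 lower (9.54%) at 30 µM (edgeR quasi-likelihood test, Benjamini-Hochberg adjusted p under 0.05). The 10 µM dose against LPS alone changed 81 genes (0.638%), 8 higher (0.063%) and 73 lower (0.575%), and 30, 18, 44 and 30 without 10 µM replicates 1 and 2 and LPS replicates 1 and 2. At 30 µM against LPS alone 3222 genes had changed (25.4%), 1601 higher (12.6%) and 1621 lower (12.8%). Among genes with at least 5 CPM the largest falls at the dose step included the LPS response genes Cfb and Il6, and the largest rises included genes of DNA replication, S100 proteins and the chaperone Hspa8. At least a doubling, a log2 fold change of 1 or more, was seen for 111 higher genes, and a fall of that size for 243. Scaling by library totals moved the median gene by -0.068 and turned the split into 870 higher and 1434 lower. The count fell to 1244, 960 and 1150 without 10 µM replicate 1, 10 µM replicate 2 and 30 µM replicate 2, and was 1685 without 30 µM replicate 1. With mean fragment length as a covariate it was 2445.

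A gene was placed in a dose class by up to 3 contrasts: 10 µM against LPS alone, 30 against 10 µM, and the difference between these steps. The class that responded at 30 µM only required a called dose step, a 95% interval of the 10 µM change within ±0.5 on the log2 scale, and a called difference between the steps. It held 200 genes, 113 higher and 87 lower. Called in the same direction at both steps were 51 genes, 48 of them lower. The plateau class, called at 10 µM with the dose step bounded within ±0.5, held 14 genes. It required no called difference between the steps, and of its members only Ifit1 and Sp140 had one. A single gene, D330050G23Rik, was called in opposite directions. The remaining 2211 called genes could not be placed: for 1461 the 10 µM change was bounded within ±0.5 but the difference between the steps was not called, and for 750 the interval reached past 0.5 or was undefined. The difference between the steps was called for 297 genes (2.34%), 153 positive (1.2%) and 144 negative (1.13%).

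These class sizes depended on single libraries. The 30 µM only class held 14 genes without 10 µM replicate 1, 6 without 10 µM replicate 2, 61 without 30 µM replicate 2, and 50 and 45 without LPS replicates 1 and 2. The class called at both steps held 21, 15, 31 and 23 genes without 10 µM replicates 1 and 2 and LPS replicates 1 and 2. With fragment length as a covariate the 30 µM only class held 95 genes and the plateau class 4. The 10 µM libraries enter both steps with opposite sign, so a deviation of theirs moves the 2 values of a gene in opposite directions. The values of both steps are therefore given side by side for part of the genes below. For the others only the dose step is given, and such a deviation cannot be seen there.

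**Figure D1:**
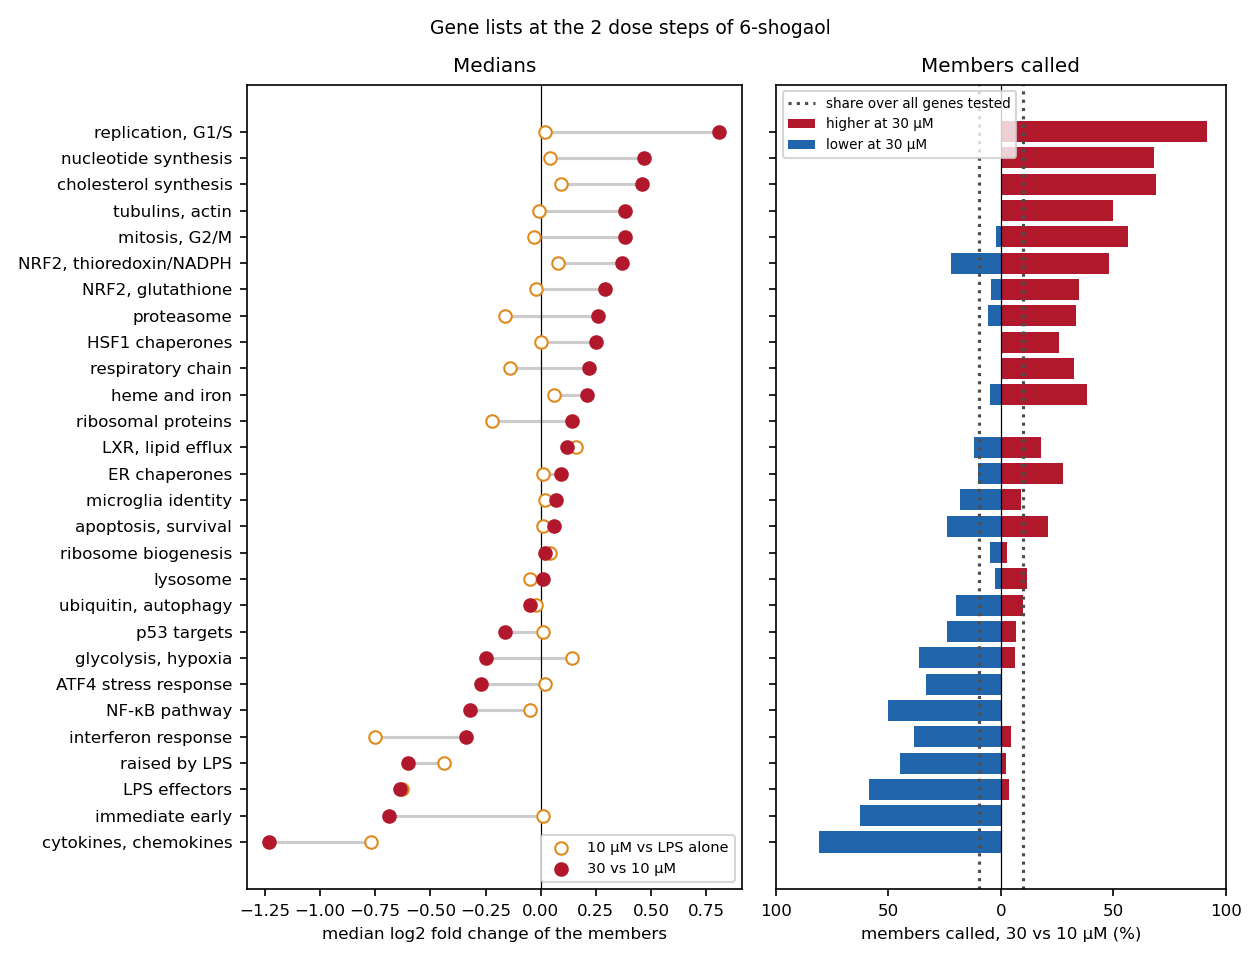
Median log2 fold change (left) of the members of each gene list for 10 µM 6-shogaol against LPS alone (open circles) and for 30 against 10 µM (filled circles), and percent of members called higher (red) or lower (blue) at 30 against 10 µM (right); dotted lines mark 9.85% higher and 9.54% lower over all genes tested. Cytokines have the lowest median of the dose step (-1.23) and replication genes the highest (0.81), while the interferon median is -0.75 at 10 µM and -0.34 at the dose step.

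Many genes raised by LPS fell at the dose step. LPS against untreated raised 973 genes (7.66%) and lowered 528 (4.16%). Of the 370 raised genes with a log2 change of 1 or more, 166 were lower and 9 higher at 30 than at 10 µM, with a median dose step of -0.60 against 0.00 over all genes. The choice of these genes used the untreated and LPS libraries and not those of the dose step. The 10 µM change of these genes is not counted, since the LPS libraries that chose them also serve as its control. Without 10 µM replicate 2 the dose step lowered 110 of them and raised 3, and the 9 became 6 without any of the other 3.

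Cytokines and chemokines, the secreted signals of activated microglia, fell furthest with the higher dose. Of 30 listed, 21 passed the count filter, and 17 of these fell from 10 to 30 µM with a median change of -1.23. At 10 µM 10 of the 21 had already fallen against LPS alone, with a median change of -0.77. Without 10 µM replicate 1 the dose step lowered 11, and the 10 became 6 without either 10 µM replicate.

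Il6, the gene of interleukin-6, stood at 212 and 194 CPM with LPS alone, 32.9 and 25.5 at 10 µM and 2.93 and 4.11 at 30 µM, and averaged 8.04 in untreated cells. The groups did not overlap, and both libraries at 30 µM lay below the untreated mean. Its log2 change was -2.80 ± 0.16 (SE) at 10 µM (adjusted p 2.04e-07) and -3.04 ± 0.22 at the dose step (adjusted p 3e-07), and the steps did not differ beyond their error (difference -0.24, adjusted p 0.731). Ccl5, a T cell-attracting chemokine induced through NF-κB and interferon regulatory factors, likewise fell by steps of nearly equal size, from 246 and 289 CPM to 73.0 and 69.5 and then 21.5 and 14.6, with log2 changes of -1.91 ± 0.18 and -1.98 ± 0.19. Neither gene was called for a difference between its 2 steps.

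Other chemokines were weighted to one dose. Cxcl2, a neutrophil attractant, went from 63.1 and 68.8 CPM to 41.1 and 38.5 and then to 5.07 and 6.2. Its change was -0.73 ± 0.13 at 10 µM and -2.82 ± 0.16 at the dose step, and the difference of -2.08 was called (adjusted p 0.000373). Cxcl10, an interferon-induced chemokine, showed the opposite weighting, from 245 and 257 CPM to 83.2 and 82.1 and then to 51.2 and 58.1, with changes of -1.60 ± 0.11 and -0.60 ± 0.11 and a called difference of 1.01 (adjusted p 0.0168). Tnf fell at both doses, by -0.68 ± 0.09 and -1.20 ± 0.09. Csf1, the growth factor for microglia, was in the 30 µM only class: 175 and 178 CPM with LPS alone, 182 and 208 at 10 µM and 83.3 and 82.0 at 30 µM, a dose step of -1.24 ± 0.11 (adjusted p 3.95e-06).

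Effectors that LPS induces showed the same range. Of 29 tested, 17 fell and 1 rose at the dose step (median -0.64), and 11 had fallen at 10 µM (median -0.63). The 1 rise was not called without any 1 of the 4 libraries or with library totals, and the 11 became 3, 2, 6 and 4 without 10 µM replicates 1 and 2 and LPS replicates 1 and 2. Cfb, complement factor B, had the lowest adjusted p of the genes described here: 261 and 267 CPM with LPS alone, 88.1 and 80.5 at 10 µM and 7.63 and 7.32 at 30 µM, against 0.27 in untreated cells. Its log2 change was -1.65 ± 0.09 at 10 µM and -3.49 ± 0.11 at the dose step (adjusted p 4.38e-11), and the difference of -1.85 was called (adjusted p 6.42e-05). Ptgs2, the inducible cyclooxygenase, fell by -0.63 ± 0.10 and then -1.86 ± 0.11 and ended at 14.8 CPM in both 30 µM libraries. Nos2, the inducible nitric oxide synthase, was lower at the dose step (131 to 37.2 CPM, -1.82 ± 0.20, adjusted p 6.16e-05), while its 10 µM change of -0.54 ± 0.19 was not called (adjusted p 0.335). Saa3, an acute-phase protein, remained the most abundant of the list, at 2739 and 2397 CPM at 30 µM against 8782 and 7100 at 10 µM.

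Genes of the NF-κB pathway and its feedback were called mainly at the dose step. At 10 µM 1 of 32 tested, Traf1, had changed, and at the dose step 16 fell, with a median of -0.32. Only 2 of the 32 had a called difference between the steps, and 1 was in the 30 µM only class. Traf1, an adaptor of TNF receptors, went from 40.6 and 40.1 CPM to 17.2 and 16.4 and then 2.99 and 2.7 (-1.27 ± 0.13 and -2.56 ± 0.17). Irak2, Birc3, Relb, Nfkbiz and Nfkb2 fell at the dose step by -0.81, -0.78, -0.78, -0.75 and -0.65, after changes of 0.01, -0.26, 0.07, -0.29 and -0.23 at 10 µM that were not called. Nfkbia, which encodes the inhibitor IκBα, was at 150 and 148 CPM at 10 µM and 139 and 126 at 30 µM, a change of -0.17 ± 0.10 that was not called (adjusted p 0.235). The list count was 8 without 10 µM replicate 2 and 7 without 30 µM replicate 2. Bcl2a1b and Bcl2a1d, also on this list, are near-identical copies between which reads may have been split.

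The upstream sequence of Cxcl2 is shown because it carries NF-κB motifs in a gene that kept falling with dose. It covers the 150 bases before the start of the gene on the gene's strand (chr5:90903749-90903898, plus strand, build GRCm38.p6, RefSeq), with matches to GGG and TTCC separated by 3 bases, on either strand, in capitals; the first capital run holds a pair of overlapping matches.
Cxcl2: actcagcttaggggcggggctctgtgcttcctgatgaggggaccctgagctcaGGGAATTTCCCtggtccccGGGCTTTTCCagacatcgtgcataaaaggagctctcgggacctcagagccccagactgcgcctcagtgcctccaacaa
This motif was found in the 250 bases upstream of 7 of the 13 tested cytokine genes with a RefSeq window (53.8%), against 5.3% of 27025 genes in the table.

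Interferon-stimulated genes, unlike cytokines, had a larger median change at 10 µM than at the dose step. For LPS effectors the medians of the 2 steps were nearly equal, at -0.63 and -0.64. Of 50 interferon genes listed, 44 were tested, and 18 had fallen at 10 µM, with a median change of -0.75. The 18 became 10, 8 and 10 without 10 µM replicate 1, 10 µM replicate 2 and LPS replicate 2. At the dose step 17 fell and 2 rose, with a median of -0.34. The difference between the steps was called for only 3 of the 44, and for 3 of 21 cytokines. Of the 44, 10 were called at both steps and 2 were in the plateau class. The contrast between the lists thus rests on their medians. The dose step lowered 10, 10 and 8 without 10 µM replicate 1, 10 µM replicate 2 and 30 µM replicate 2, and the 2 that rose became 1, 0, 1 and 0 without 10 µM replicates 1 and 2 and 30 µM replicates 1 and 2.

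Ifit1, a sensor of foreign RNA caps, reached its final level at the lower dose. It was at 17.7 and 17.2 CPM with LPS alone, 6.80 and 6.53 at 10 µM and 5.31 and 7.83 at 30 µM, so the 2 doses overlapped. The change at 10 µM was -1.39 ± 0.17 (adjusted p 0.00077), and the dose step was -0.01 with a 95% interval of -0.42 to 0.39. Ifi204, a DNA sensor of the Ifi200 family, had a similar course, with 35.2 and 35.6 CPM for LPS alone, 20.3 ± 0.387 (mean ± SD of 2 libraries) at 10 µM and 20.8 ± 0.723 at 30 µM, and a dose step of 0.04 (interval -0.26 to 0.34). The difference between the steps was called for Ifit1 (1.37, adjusted p 0.0368) and not for Ifi204 (0.85, adjusted p 0.0831). Both stayed above their untreated means of 0.783 and 12.2 CPM. Ifi204 belongs to a family of similar genes whose reads can be split between copies.

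The other plateau genes were few and mixed. Besides Ifit1 and Ifi204 the class held the immune genes Ifi27, Trex1, Sp140 and Lgals9, together with Arrb1, Pim2, Rhoc, Acsl1, Gbe1, Tes, Ephx1 and Kcnj2. The dose step intervals of Acsl1 (-0.41 to -0.04) and Ephx1 (0.01 to 0.49) each lay wholly on the side of the gene's 10 µM change. Trex1 degrades cytosolic DNA, and Ephx1, an epoxide hydrolase and NRF2 target, was one of the members that rose, from 49.0 and 48.1 CPM to 75.7 and 68.8 at 10 µM (0.57 ± 0.11, adjusted p 0.0276) and 91.0 and 80.5 at 30 µM (0.25 ± 0.11, adjusted p 0.141). Oasl1, Oas3, Oas1a and Ddx58, all RNA sensors or their effectors, were also called at 10 µM (-1.09, -0.79, -0.70 and -0.67) and not at the dose step (-0.30, -0.29, -0.28 and -0.26). Their dose step intervals were too wide for the plateau class. Oas1a is 1 of several close copies.

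Other interferon genes went on falling. Isg15, a ubiquitin-like modifier, stood at 105 and 96.1 CPM with LPS alone, 37.0 and 34.6 at 10 µM and 18.9 and 17.2 at 30 µM, with changes of -1.49 ± 0.13 and -0.98 ± 0.14 (dose step adjusted p 0.000173). Gbp2, a guanylate-binding protein, went from 20.5 and 16.4 to 6.28 and 8.03 and then 1.95 and 2.20 CPM (dose step -1.79 ± 0.22). Irf7, the amplifier of interferon production, fell by -1.35 ± 0.19 and -0.98 ± 0.21. In each of these 3 genes the groups did not overlap. With 2 libraries per group this is common between the 2 doses. Over all 12705 genes tested, both 30 µM libraries lay below both 10 µM libraries for 3953 and above them for 4003.

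Ifit2, an interferon-induced RNA-binding protein, was higher at 30 than at 10 µM and at 30 µM close to its level with LPS alone. Ifit2 was at 34.0 and 31.1 CPM with LPS alone, 25.6 and 25.2 at 10 µM and 34.3 and 36.8 at 30 µM (dose step 0.49 ± 0.11, adjusted p 0.00551). Its fall at 10 µM was not called (-0.36, adjusted p 0.22).

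**Figure D2:**
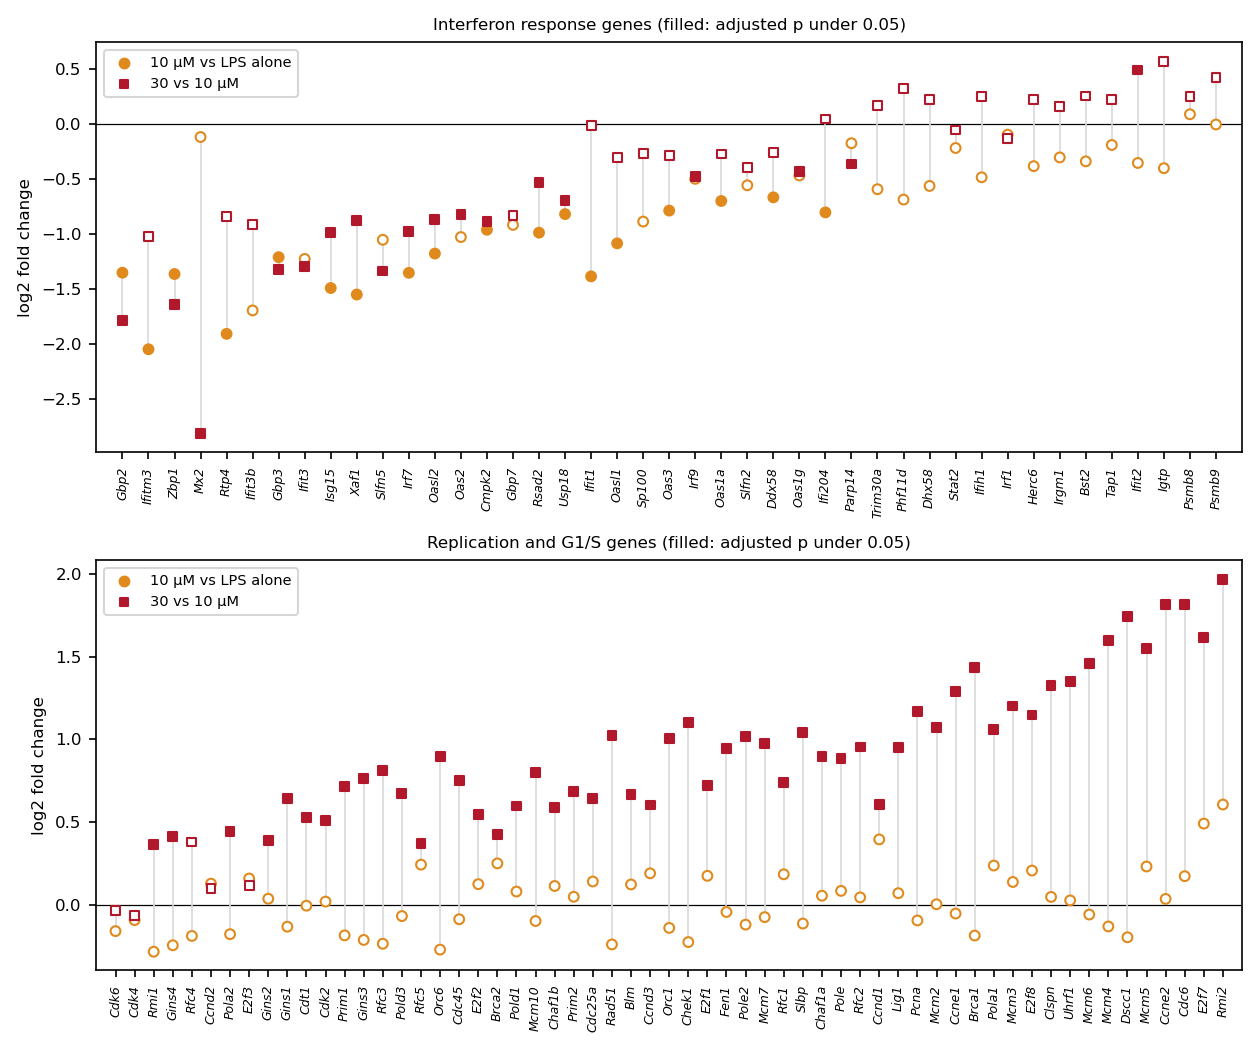
Log2 fold change of tested interferon genes (top, 43 of 44 drawn) and of each tested replication gene (bottom) for 10 µM 6-shogaol against LPS alone (circles) and for 30 against 10 µM (squares), ordered by the change at 30 µM against LPS alone; filled symbols have an adjusted p under 0.05. Interferon genes are already displaced at 10 µM (18 of 44 called), whereas in the replication list no circle is filled and 54 of 59 squares are.

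The upstream sequences of Ifit1, at plateau from 10 µM, and Isg15, still falling, are shown side by side. Both cover the 150 bases before the start of the gene on its own strand (RefSeq, build GRCm38.p6; Ifit1 chr19:34640739-34640888, plus strand; Isg15 chr4:156200819-156200968, minus strand), with matches to a pair of GAAA separated by 2 bases, the core of the interferon-stimulated response element, on either strand in capitals.
Ifit1: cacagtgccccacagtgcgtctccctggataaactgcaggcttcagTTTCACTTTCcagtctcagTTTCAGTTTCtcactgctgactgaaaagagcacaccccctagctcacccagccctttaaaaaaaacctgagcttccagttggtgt
Isg15: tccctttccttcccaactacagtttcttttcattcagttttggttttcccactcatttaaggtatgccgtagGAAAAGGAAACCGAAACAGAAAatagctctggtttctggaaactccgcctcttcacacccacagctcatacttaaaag
The Ifit1 window held 2 separate matches and the Isg15 window 3 that overlap, so the motif was present in a gene at plateau and in a gene that fell further. Among tested interferon genes with a RefSeq window 17 of 35 held it in the 250 bases upstream (48.6%), against 3.5% of all 27025 genes.

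DNA replication genes rose at 30 µM and were near their LPS level at 10 µM. Of 59 genes of replication and G1/S entry, all of which passed the count filter, 54 were higher at 30 than at 10 µM, with a median dose step of 0.81. At 10 µM the median change was 0.02 and edgeR called 0, with 5 at an unadjusted p under 0.05 (3 higher, 2 lower) and 0 by DESeq2 or limma-voom. The 95% interval of the 10 µM change lay within ±0.5 for 44 of the 59, and 24 met every condition of the 30 µM only class. Without 1 library of the dose step between 42 and 49 of the 59 were called higher.

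Cdc6, which loads the MCM helicase onto replication origins, was at 10.6 and 10.0 CPM with LPS alone, 12.3 and 11 at 10 µM and 39.0 and 42.7 at 30 µM, against an untreated mean of 10.8. Both 30 µM libraries were above all others of these groups, and the dose step was 1.81 ± 0.12 (adjusted p 1.57e-07) after 0.17 ± 0.12 at 10 µM, a called difference of 1.64 (adjusted p 0.0011). Ccne2, the cyclin E2 that drives CDK2 at the G1/S boundary, went from 18.2 and 14.7 CPM to 52.5 and 63.0 (1.82 ± 0.15, adjusted p 2.57e-06). The helicase subunits Mcm4, Mcm5 and Mcm6 rose by 1.60, 1.55 and 1.46, and Mcm5 went from 82.2 and 74.8 to 242 and 217 CPM. Pcna, the sliding clamp of the polymerases, went from 252 and 246 to 536 and 586 CPM (1.17 ± 0.12), and Brca1, of homologous recombination, from 25.8 and 27.6 to 68.5 and 76.0 CPM (1.43 ± 0.10).

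The licensing factor Cdt1 (0.53), the clamp loader subunits Rfc1, Rfc2, Rfc3 and Rfc5 (0.74, 0.95, 0.81 and 0.37), the polymerase subunits Pola1, Pold1 and Pole (1.06, 0.60 and 0.89) and the factors E2f1, E2f2, E2f7 and E2f8 (0.72, 0.54, 1.61 and 1.15) were also called higher. The 5 genes of the list that were not called were Cdk4, Cdk6, Ccnd2, E2f3 and Rfc4, so the kinases and 1 cyclin of the early G1 phase were among those left out.

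Cdc6 and Mcm5 are printed with their upstream sequence because they were among the largest rises. Cdc6 covers 150 and Mcm5 250 bases before the start on the gene's strand (RefSeq, build GRCm38.p6; Cdc6 chr11:98908001-98908150, plus strand; Mcm5 chr8:75109259-75109508, plus strand), with matches to TTTCGCGC, TTTGGCGC or TTTCCCGC on either strand, forms of the E2F site, in capitals. The 2 matches in Mcm5 overlap. In the GENCODE annotation Cdc6 starts near 98907800. The Cdc6 window thus precedes the RefSeq start but lies inside the gene by GENCODE.
Cdc6: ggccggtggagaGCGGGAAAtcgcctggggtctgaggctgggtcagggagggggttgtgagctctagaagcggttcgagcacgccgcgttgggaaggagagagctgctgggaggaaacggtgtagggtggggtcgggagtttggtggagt
Mcm5: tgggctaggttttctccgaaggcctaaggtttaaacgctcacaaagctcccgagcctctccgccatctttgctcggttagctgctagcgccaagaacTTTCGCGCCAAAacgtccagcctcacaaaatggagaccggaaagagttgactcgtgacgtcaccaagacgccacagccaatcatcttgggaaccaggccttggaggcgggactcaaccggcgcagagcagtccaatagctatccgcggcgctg
Such a match lay in the 250 bases upstream of 14 of 46 tested replication genes with a RefSeq window (30.4%), against 1.8% of all 27025 genes, and of 1 of 25 nucleotide synthesis genes (4.0%).

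Nucleotide synthesis rose with replication. Of 28 genes 19 were higher at the dose step (median 0.47), and 8 were in the 30 µM only class. At 10 µM edgeR, DESeq2 and limma-voom called 0, with 4 at an unadjusted p under 0.05. The ribonucleotide reductase subunit Rrm1 went from 116 and 115 CPM with LPS alone to 129 and 129 at 10 µM and 338 and 381 at 30 µM (1.48 ± 0.09), and Rrm2 from 46.6 and 47.5 to 124 in both 30 µM libraries (1.40 ± 0.10). Dut, which removes dUTP, rose by 1.42. The count of 19 became 12 without 10 µM replicate 2.

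Of 48 genes of mitosis tested, 27 were higher and 1 lower at the dose step, with a median of 0.38. Nuf2, a kinetochore subunit, went from 42.8 and 38.6 to 84.7 and 101 CPM (1.19 ± 0.14), and Cdk1, the mitotic kinase, from 98.7 and 92.3 to 172 and 182 CPM (0.89 ± 0.12). Ccnb2, cyclin B2, was the member that fell, from 100 and 102 to 76.3 and 80.4 CPM (-0.37 ± 0.09, adjusted p 0.0108), and was called without 30 µM replicate 2 but not without any of the other 3 libraries. Ccnb1, cyclin B1, was at 173 and 170 CPM at 10 µM and 212 and 225 at 30 µM (0.35 ± 0.14, adjusted p 0.104), and the kinase Plk1 at 82.8 and 82.7 against 101 and 90.4 CPM (0.21 ± 0.09, adjusted p 0.133), and neither was called. The count of higher members was 13, 12 and 11 without 10 µM replicate 1, 10 µM replicate 2 and 30 µM replicate 2.

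The integrated stress response is driven by ATF4 when translation or amino acids fail. Of 39 of its genes tested, 13 were lower at the dose step and 26 were not called (median -0.27). At 10 µM edgeR and limma-voom called 0 and DESeq2 1, with 11 at an unadjusted p under 0.05 (8 higher, 3 lower). A difference between the steps was called for 5 of the 39, and 3 were in the 30 µM only class. Ppp1r15a, the phosphatase subunit that restarts translation, was at 94.9 and 108 CPM with LPS alone, 83.5 and 99.2 at 10 µM and 15.2 and 17.8 at 30 µM. Its dose step of -2.47 ± 0.13 (adjusted p 2.48e-08) differed from the 10 µM change of -0.15 ± 0.11 (difference -2.31, adjusted p 6.42e-05). Trib3, a pseudokinase that restrains AKT and ATF4, went from 120 and 111 CPM at 10 µM to 32.1 and 26.9 (-1.97 ± 0.17), with 125 and 112 for LPS alone. Ddit3 (CHOP) and Atf3 fell by -1.37 ± 0.15 and -1.10 ± 0.09. Atf4 itself went from 506 and 490 to 321 and 347 CPM (-0.57 ± 0.11, adjusted p 0.00199).

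Other ATF4 targets were not called. Asns, asparagine synthetase, was at 285 and 278 CPM at 10 µM and 234 in both libraries at 30 µM, a change of -0.27 ± 0.12 that was not called (adjusted p 0.145), and Chac1 was not called either (-0.63 ± 0.31, adjusted p 0.172). The ATF4 motif, TGATG and AA separated by 1 base on either strand, lay in the 250 bases upstream of 7 of 32 tested members with a RefSeq window (21.9%), against 3.9% of all 27025 genes. The windows of Ppp1r15a, Trib3 and Ddit3, described above for their falls, held no match.

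Immediate early genes, the transcription factors and phosphatases that growth and stress signals switch on within minutes, were often lower at 30 µM. Of 32 tested, 20 fell at the dose step (median -0.69), and 6 were in the 30 µM only class. At 10 µM the median was 0.01 and edgeR, DESeq2 and limma-voom called 0, with 4 at an unadjusted p under 0.05. Ier3, a survival factor, was at 126 and 125 CPM with LPS alone, 122 and 131 at 10 µM and 47.4 and 40.1 at 30 µM (-1.53 ± 0.10, adjusted p 3e-07). The AP-1 subunits Jund, Jun and Junb fell by -1.16, -0.94 and -0.86, and Jun went from 59.1 and 63.7 to 35.2 and 28.7 CPM. Myc, at 14.0 and 15.2 CPM, fell to 8.61 and 9.30 (-0.71 ± 0.16, adjusted p 0.00748).

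The hypoxia factor HIF controls many genes of glucose uptake and glycolysis. Of 33 genes of glycolysis and hypoxia, 12 fell, 2 rose and 19 were not called at the dose step (median -0.25), and the 2 were not called without any 1 of the 4 libraries. At 10 µM the median change was 0.14 and edgeR and limma-voom called 0 and DESeq2 2, with 11 higher at an unadjusted p under 0.05. Of the 33, 9 had a called difference between the steps and 3 were in the 30 µM only class. Ero1l, an endoplasmic reticulum oxidase induced by hypoxia, was at 697 and 612 CPM with LPS alone, 844 and 963 at 10 µM and 419 and 386 at 30 µM. Its dose step was -1.17 ± 0.11 (adjusted p 8.42e-06) after a 10 µM change of 0.46 ± 0.11 that was not called (adjusted p 0.0975). Slc2a1, the glucose transporter GLUT1, followed the same course (206 and 224 to 131 and 99.3 CPM, -0.90 ± 0.15), as did Vegfa (123 and 125 to 74.1 and 72.3 CPM, -0.77 ± 0.09) and Bnip3 (-0.83). Ndrg1 was in the 30 µM only class, at 59.7 and 49.6, then 56.1 and 62.0, then 29.2 and 23.6 CPM (-1.17 ± 0.14). Ldha, lactate dehydrogenase A, was at 1581 and 1550 CPM at 10 µM and 1461 and 1193 at 30 µM and was not called (-0.24 ± 0.17, adjusted p 0.369).

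NRF2 targets moved in part. In the glutathione list 8 of 23 rose and 1 fell at the dose step (median 0.29), and in the thioredoxin and NADPH list 13 of 27 rose and 6 fell (median 0.37). Each list had 2 genes with a called difference between the steps and 1 in the 30 µM only class. At 10 µM 1 gene of both lists, Ephx1, was called, and it was not without any 1 of the LPS and 10 µM libraries. Gclm, the modifier subunit of the rate-limiting enzyme of glutathione synthesis, was at 60.8 and 63.9 CPM with LPS alone, 71.0 and 64.0 at 10 µM and 140 and 136 at 30 µM (1.03 ± 0.10, adjusted p 5.31e-06), and its catalytic partner Gclc went from 31.6 and 30.9 to 49.4 and 57.2 (0.77 ± 0.13). Prdx1, a peroxide-reducing enzyme, went from 1373 and 1226 to 2919 and 3282 CPM (1.25 ± 0.16, adjusted p 0.0001). Me1 and G6pdx, which make NADPH, rose by 0.92 and 0.68, and Txnrd1, thioredoxin reductase, by 0.43 ± 0.10.

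Several genes that are widely used as NRF2 reporters did not follow. Hmox1, heme oxygenase 1, was at 524 and 527 CPM at 10 µM and 474 and 392 at 30 µM (-0.28 ± 0.11, adjusted p 0.0847). Slc7a11, the cystine transporter, was at 90.2 and 78.8 against 84.4 and 94.5 CPM, with overlapping groups (0.08 ± 0.12, adjusted p 0.659). At 30 µM against LPS alone Slc7a11 was called higher (0.37 ± 0.12, adjusted p 0.0286, edgeR). Sqstm1, the autophagy receptor p62, fell from 668 and 675 to 400 and 384 CPM (-0.78 ± 0.11, adjusted p 0.000164), and the small MAF partners Maff, Mafk and Mafg fell by -1.13, -0.74 and -0.50. Nqo1 rose but stood at about 1 CPM (1.1 and 1.07). The 8 glutathione genes became 5 without 10 µM replicate 2, and Gstt2, the member that fell, was called without 30 µM replicate 1 and not without any of the other 3. The 13 thioredoxin genes became 6 without either 10 µM replicate, and the 6 that fell became 3 without 10 µM replicate 2.

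Of 39 heat shock chaperones and other HSF1 targets tested, 10 rose with the dose and 29 were not called (median 0.25), and Hspa8 had the largest rise. At 10 µM edgeR, DESeq2 and limma-voom called 0, with 5 at an unadjusted p under 0.05. The steps differed by a called amount for 2 of the 39, and 1 was in the 30 µM only class. Hspa8, the constitutive HSP70, was at 695 and 701 CPM with LPS alone, 877 and 873 at 10 µM and 2408 and 2460 at 30 µM (dose step 1.48 ± 0.11, adjusted p 7.61e-07, after 0.33 ± 0.11 at 10 µM, adjusted p 0.302). Hsph1, an HSP70 co-chaperone, went from 57.1 and 61.3 to 113 and 116 CPM (0.95 ± 0.10) and Hsp90aa1 from 818 and 800 to 1155 and 1354 CPM (0.63 ± 0.14). The inducible HSP70 gene Hspa1a stood at 0.821 and 0.726 CPM at 10 µM and 1.40 and 0.902 at 30 µM (0.57 ± 0.54, adjusted p 0.496), and the co-chaperone Dnajb1 at 23.1 and 23.5 against 30.4 and 24.8 CPM (0.24 ± 0.12, adjusted p 0.192). Neither was called. Hspa8 and Prdx1 have processed copies elsewhere in the genome, so part of their reads may have been assigned among copies. The count of 10 became 6, 3 and 3 without 10 µM replicate 1, 10 µM replicate 2 and 30 µM replicate 2.

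Of 36 proteasome genes 12 rose, 2 fell and 22 were not called at the dose step (median 0.26). Against LPS alone the median change was -0.16 at 10 µM and 0.08 at 30 µM, so as a list they ended near their LPS level. At 30 µM against LPS alone 11 were higher and 4 lower. Psmd1, a scaffold of the regulatory particle, was at 108 and 109 CPM at 10 µM and 218 and 223 at 30 µM (1.02 ± 0.09, adjusted p 3.6e-06), and was in the 30 µM only class. Nfe2l1, the transcription factor that controls proteasome genes, fell by -0.50, and Psmb6 by -0.38. Psmd11, a lid subunit of the regulatory particle, was at 93.5 and 97.6 against 120 and 110 CPM and was not called (0.26 ± 0.10, adjusted p 0.0893). Without 10 µM replicate 1, 10 µM replicate 2 and 30 µM replicate 2 the dose step raised 7, 4 and 5 and lowered 1, 0 and 1, and it lowered 1 without 30 µM replicate 1.

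Cholesterol synthesis genes, the targets of SREBP2, rose at 30 µM. Of 29 genes of sterol and fatty acid synthesis 20 were higher at the dose step (median 0.46). At 10 µM edgeR and limma-voom called 0 and DESeq2 1, with 3 at an unadjusted p under 0.05. Only 1 of the 29 had a called difference between the steps, and 1 was in the 30 µM only class. The list as a whole therefore cannot be said to respond at 30 µM only. Insig1, the sterol-sensitive brake on SREBP, was at 139 and 117 CPM with LPS alone, 153 and 145 at 10 µM and 266 and 288 at 30 µM (0.90 ± 0.10, adjusted p 3.09e-05). Idi1 and Fdft1, enzymes of the isoprenoid and squalene steps, rose by 0.86 ± 0.17 and 0.82, and Hmgcs1 by 0.48 ± 0.10. Abca1, the cholesterol exporter that LXR controls, fell from 274 and 302 to 148 and 134 CPM (-1.03 ± 0.12), and Nr1h3, the gene of LXRα, fell by -1.21 ± 0.20. The 20 became 12, 12 and 13 without 10 µM replicate 1, 10 µM replicate 2 and 30 µM replicate 2.

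Of 33 microglia identity genes tested, 3 rose and 6 fell, against 9.85% and 9.54% of all genes, so the rises were at the background share. Csf1r, the receptor for CSF1 and IL-34 on which microglia depend, was at 507 and 477 CPM with LPS alone, 557 and 578 at 10 µM and 351 and 288 at 30 µM (-0.83 ± 0.14, adjusted p 0.000712), in the same libraries in which Csf1 fell. Mertk, a receptor for apoptotic cells, rose from 5.51 and 5.32 to 10.4 and 9.58 CPM (0.89 ± 0.17), and Tyrobp, the TREM2 adaptor, rose by 0.59. Trem2 itself was at 49.1 and 47.5 against 57.6 and 55.6 CPM (0.23 ± 0.11, adjusted p 0.178), and the fractalkine receptor Cx3cr1 at 0.821 and 0.629 against 0.611 and 0.282 CPM (-0.70 ± 0.57, adjusted p 0.415), and neither was called. Among 29 apoptosis and survival genes 6 rose and 7 fell. The protective Mcl1 and Bcl2l1 went from 638 and 635 to 356 and 337 CPM (-0.88 ± 0.12) and from 61.9 and 71.2 to 38.8 and 32.8 CPM (-0.90 ± 0.14), while Casp1, the inflammasome caspase, rose by 0.64. Bcl2l11, the death-promoting BIM, was at 62.9 and 63.9 against 61.4 and 64.7 CPM and was not called (-0.01 ± 0.11). The microglial falls became 3, 1 and 1 without 10 µM replicate 1, 10 µM replicate 2 and 30 µM replicate 2. The apoptosis rises became 3 without 10 µM replicate 2 or 30 µM replicate 2, and the falls 4 without 30 µM replicate 2.

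The share of a gene's 30 µM change that was present at 10 µM was read as the ratio of the 2 log2 changes from LPS alone, for genes called at 30 µM with an absolute change of at least 0.5. The median share was 58.1% over 29 interferon genes (quartiles 51.2% to 69.3%), 44.3% over 19 cytokines, 39.5% over 22 LPS effectors and 25.3% over 13 NF-κB pathway genes. It was 22.3% for cholesterol synthesis, 18.6% for the thioredoxin and NADPH list, 13.8% for ATF4 targets, 11.3% for immediate early genes and 2.8% over 50 replication genes, against 23.4% over all genes that met the condition. On the linear CPM scale the interferon and cytokine medians were 73.6% and 62.0%. The 2 ratios of a gene share the LPS libraries, and these values are given without a test.

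**Figure D3:**
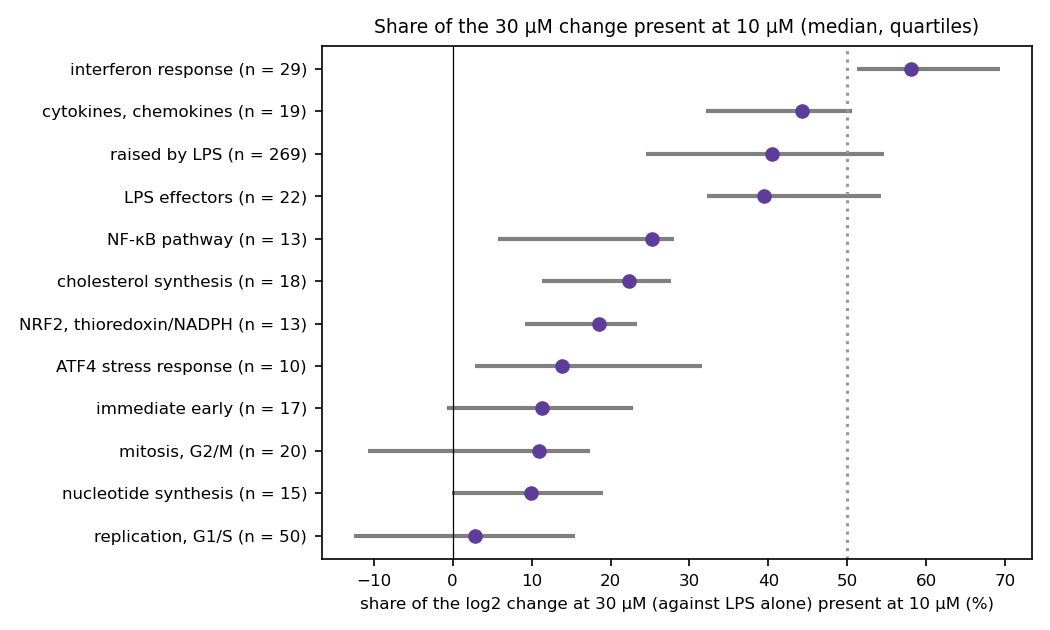
Share of the log2 change at 30 µM against LPS alone that was present at 10 µM, in percent, per gene list with at least 10 such genes (points, median; bars, lower to upper quartile; dotted line, 50%). Interferon genes have the highest median (58.1%) and replication genes the lowest (2.8%).

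The same step in dose of 6-gingerol, the related compound without the unsaturated ketone, changed 1 gene of 12705 (0.00787%), with 434 at an unadjusted p under 0.05. The difference between the dose steps of the compounds was itself called for 1038 genes (8.17%), with 542 more positive (4.27%) and 496 more negative (3.9%) for 6-shogaol. For Il6 the 6-gingerol step was -0.62 against -3.04 for 6-shogaol, for Cfb -0.07 against -3.49, for Cdc6 0.20 against 1.81 and for Trib3 -0.15 against -1.97. The count of 1038 became 397, 300 and 346 without 10 µM 6-shogaol replicate 1, 10 µM replicate 2 and 30 µM replicate 2.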

How the data were processed

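RNA of 12 BV2 libraries (6 groups of 2) was sequenced from stranded mRNA libraries, per the labels' protocols. The deposited tables hold expected counts per gene from RSEM, per the file headers, and 7.03% of values were not whole. Gene and effective lengths in the same tables, per the file headers, gave mean fragment length. Another table, deposited by the authors, gives a signal that they normalized, and how is not given in the sources used here; it served as an alternative. The submitters' processing notes name Trimmomatic 0.39, STAR 2.7.11b, RSEM 1.3.3, DESeq2 1.44.0 and the build GRCm38.

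Expected counts were rounded, filtered with filterByExpr, scaled by TMM and fitted in edgeR 4.0.16 (R 4.3.3) with 6 group means over all 12 libraries. Quasi-likelihood F tests were 2-sided and adjusted (Benjamini-Hochberg) over 12705 genes within each contrast. Errors after ± are standard errors and intervals are 95%. The median interval half-width was 0.29 (log2) for a pair of groups. On simulated counts of the dose step 98% of log2 changes of 1 and 50% of changes of 0.5 were recovered, and 9 unchanged genes were called. The changed genes, 200 in all, had a mean of at least 5 CPM, so recovery at lower counts was not measured. Their spread followed the trend with expression, without differences between genes of like expression. Replicates differed by 6.29 to 36.32 chi-square per degree of freedom, more than sampling noise. DESeq2 1.42.0 and limma 3.58.1 were alternatives, with other scalings, filters, samples, covariates and thresholds.

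Members and lists were chosen with earlier results of these data known, and nothing is supported by that choice. Genes named were each list's lead genes and up to 4 largest called changes, the 12 largest rises and falls among protein-coding genes with at least 5 CPM, the 8 largest of the 30 µM only and plateau classes, and reversed genes. All other genes named, such as Csf1, Ifit2, Pcna, Brca1, the smaller rises of the replication list, Jun, Vegfa, Atf4 and Casp1, were chosen after their values were seen. Some genes are not reported here.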

Additional observations from a re-analysis of the deposited data

Results flagged for a closer look

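The dose step of 6-shogaol was set against the same step of 6-gingerol in 1 contrast, and the difference was called for 1038 genes by edgeR. Of 55 lead genes tested 28 were called, 10 with a more positive and 18 with a more negative step for 6-shogaol. The values below are log2 step of 6-shogaol minus log2 step of 6-gingerol, and they came to notice because 2 groups given the same change in dose differed. No explanation was tested.

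Genes of the LPS response had the more negative step with 6-shogaol: Cfb (-3.42), Il6 (-2.42), Traf1 (-2.21), Ccl5 (-2.0), Nos2 (-1.77), Saa3 (-1.51), Gbp2 (-1.46), Irf7 (-1.35), Tnf (-1.0) and Isg15 (-0.77). Stress genes did as well, with Trib3 (-1.81), Ddit3 (-1.32), Atf3 (-1.0), Sqstm1 (-0.72) and Mdm2 (-0.62), and so did Myc (-0.87), Abca1 (-1.05) and Csf1r (-0.78).

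Replication and nucleotide genes had the more positive step with 6-shogaol: Rmi2 (2.33), Ccne2 (1.96), Cdc6 (1.62), Mcm5 (1.45) and Rrm2 (1.42). So did the chaperones Hspa8 (1.44) and Hsph1 (0.89), the glutathione gene Gclm (1.11), the sterol gene Hmgcs1 (0.61) and the mitochondrial mt-Co1 (0.90). For mt-Co1 the share of mitochondrial transcripts also differed between libraries, at 6.48% and 5.90% with 10 µM 6-gingerol and 4.64% and 5.08% with 30 µM, and its part in the result was not tested.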

How the results depend on the processing

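The dose step count of 2463 genes (1251 higher, 1212 lower) stayed within 1.5 times under other scalings, without a count filter, without the untreated libraries, with only the 4 libraries of the dose step, with fragment length, with DESeq2 and limma-voom and with the authors' deposited normalized table. A threshold of 0.01 gave 1200 (619 higher, 581 lower), and an absolute log2 change of at least 1 gave 354 (111 and 243). With 1 library left out the counts were 960 to 1685 (440 to 886 higher, 520 to 799 lower). The lone remaining library was then taken to vary like the other groups. The replicate block gave 2516 genes and changed no call of a named gene. Replicate numbers did not pair libraries (r of replicate differences 0.01 between 10 and 30 µM, -0.31 to 0.18 over all pairs of groups).

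The dose classes moved more, and the cause was not tested. The 30 µM only class (200) held 421 genes without a count filter, 496 without the untreated libraries, 95 with fragment length, 56 with a no-change range of ±0.3, and 6 to 158 with 1 library left out. The class called at both steps (51) held 98, 78 and, with 1 library left out, 15 to 45. The plateau class (14) held 9 with library totals, 84 without a filter, 47 without the untreated libraries, 4 with fragment length, 1 and 25 with ranges of ±0.3 and ±1, and 0 to 8 with 1 library left out. The reversed class (1) held 0 with library totals and with fragment length, 51 without a filter, 16 without the untreated libraries, 3 with the replicate block and 0 to 1 with 1 library left out.

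The 10 µM count against LPS alone (81) was 311 without a filter, 166 without the untreated libraries, 48 with fragment length and 18 to 72 with 1 library left out. The difference between compounds (1038) was 1735 without the untreated libraries and 300 to 783 with 1 6-shogaol or LPS library left out. These 2 sets of alternatives, and the counts of list members with 1 library left out, were chosen after seeing the data. On the linear CPM scale the median share present at 10 µM moved from 44.3% to 62.0% for cytokines, 39.5% to 57.3% for LPS effectors, 25.3% to 32.7% for the NF-κB pathway, 58.1% to 73.6% for interferon genes, 18.6% to 13.9% for the thioredoxin list, 13.8% to 18.2% for ATF4 targets, 10.9% to 8.9% for mitosis, 11.3% to 16.3% for immediate early genes and 22.3% to 17.9% for cholesterol synthesis. Of 2232 values of 160 named genes under alternatives, 2119 kept direction and side of the threshold, 103 lost their call, 10 gained one and 0 reversed. Genes of low count, such as Nqo1 and D330050G23Rik, were among those that most often lost the call.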

Other observations

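Genes outside the lists described above also moved with the dose. S100a4 and S100a11, small calcium-binding proteins, were among the 12 largest rises. S100a4 was at 71.8 and 65.4 CPM with LPS alone, 73.5 and 64.5 at 10 µM and 226 and 221 at 30 µM (1.70 ± 0.11, adjusted p 1.57e-07, edgeR). S100a11 was at 34.6 and 43.8 CPM with LPS alone, 29.6 and 32.1 at 10 µM and 117 and 112 at 30 µM (1.89 ± 0.14, adjusted p 4.98e-07). Its 10 µM change of -0.35 ± 0.14, opposite to the dose step, was not called (adjusted p 0.379). Tubulins and actin genes rose in 8 of 16 tested, with Tuba1b and Tubb4b higher by 0.70 and 0.78, and in 5 without 10 µM replicate 2. Of 21 heme and iron genes 8 rose and 1 fell, and Ftl1, the ferritin light chain, went from 7301 and 6510 to 11998 and 10248 CPM (0.69 ± 0.13). For the tubulin and the heme list the background is 9.85% higher and 9.54% lower over all genes, so the 1 fall was below the background share. The 8 became 5, 4 and 4 without 10 µM replicate 1, 10 µM replicate 2 and 30 µM replicate 2.

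Among 29 p53 targets 7 fell and 2 rose, against 9.54% and 9.85% of all genes, so the rises were below the background share. The 2 became 1 without any 1 of the 4 libraries. Mdm2, which degrades p53 and is also induced by LPS here, fell at both steps (-0.74 ± 0.11 and -0.78 ± 0.11), while Cdkn1a, the cell cycle inhibitor p21, was not called (-0.32 ± 0.13, adjusted p 0.105). Ribosomal protein genes were called in 0 of 40 at the dose step by edgeR, DESeq2 and limma-voom, with 2 at an unadjusted p under 0.05.

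Among ER chaperones 8 of 29 rose and 3 fell, against 9.85% and 9.54% of all genes, so the falls were near the background share. Sec61b, a subunit of the protein-conducting channel, was higher by 0.85, and Hspa5, the chaperone BiP, was not called (0.23 ± 0.12, adjusted p 0.179). The rises became 3 and 5 without 10 µM replicate 2 and 30 µM replicate 2. Of 34 nuclear genes of the respiratory chain 11 rose (median 0.22), with Cox7a2 and Ndufa4 higher by 0.73 and 0.72. Against LPS alone the list median was -0.14 at 10 µM and 0.07 at 30 µM. The 11 became 5, 2, 4 and 6 without 10 µM replicates 1 and 2 and 30 µM replicates 1 and 2. Of 30 ubiquitin and autophagy genes 3 rose and 6 fell, against 9.85% and 9.54% of all genes, so the rises were near the background share. Among those that fell were Tfeb, a master regulator of lysosome genes (-0.91), and Mitf (-0.78). The 3 became 1, 0, 1 and 1 without those libraries in the same order. Of 35 lysosome genes 4 were higher and 1 lower, against 9.85% and 9.54% of all genes. The 4 became 2 without 10 µM replicate 1, 10 µM replicate 2 or 30 µM replicate 1, and the 1 was called without 10 µM replicate 1 and not without any of the other 3.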
